A study of Homo sapiens with 12 samples.

Results

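The genes described here are 10 core components of the TGF-beta pathway, namely 2 ligands (TGFB1, TGFB2), 2 receptors (TGFBR1, TGFBR2), 4 SMADs (SMAD2, SMAD3, SMAD4, SMAD7) and 2 latent TGF-beta binding proteins (LTBP1, LTBP3). They were chosen by symbol from the 58051 genes of the raw count table, and all 10 passed the filter on low counts in every comparison. The cells were MDA-MB-231, a triple-negative breast cancer line of mesenchymal character that was derived from a single patient, transfected with siRNA in 4 groups of 3 libraries each. The siControl group received a control siRNA, siNELFA an siRNA against the NELF-A subunit of the negative elongation factor, siYAP an siRNA against the transcriptional co-activator YAP, and siNELFA+siYAP both. The sample labels give 48 and 72 h of knockdown at 50 to 100 nM siRNA, and the methods of the study give 72 h for the sequenced RNA. The comparisons ask how the mRNA of each component differed after loss of NELF-A, of YAP, or of both.

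TGF-beta is secreted in a latent complex in which its propeptide is bound by an LTBP, which stores the ligand in the extracellular matrix. Once released, the ligand binds TGFBR2, which recruits and phosphorylates TGFBR1. TGFBR1 in turn phosphorylates SMAD2 and SMAD3, which enter the nucleus with SMAD4, while SMAD7 inhibits the receptor and is itself a target gene of the pathway. In breast cancer the pathway restrains growth early and favours invasion and epithelial to mesenchymal transition later, and MDA-MB-231 cells both secrete the ligands and respond to them.

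Library totals were 9608145 to 18803104 counts. Levels of one gene across libraries are given as CPM, counts scaled to library size with TMM factors. NELFA averaged 27.0 ± 1.47 CPM in siControl (SD, n = 3), 8.71 ± 1.43 in siNELFA and 7.06 ± 0.949 in siNELFA+siYAP. YAP1 averaged 274 ± 27.0 CPM in siControl, 42.8 ± 4.27 in siYAP and 41.5 ± 2.01 after both siRNAs, so both targeted mRNAs were low in the groups labelled for them. Replicate 1 differed from replicates 2 and 3 in 3 of the groups, siControl, siNELFA and siYAP. E-cadherin (CDH1), which is silenced in this line, had 169 to 599 counts in those 3 libraries and 0 to 17 in the other 9, and EPCAM reached 15.3 to 18.0 CPM against 4.67 to 9.45. The epithelial keratin gene KRT18 overlapped, at 137 to 193 CPM against 152 to 183. The mesenchymal marker VIM was lower in those 3 libraries, at 1163 to 1280 CPM against 1380 to 1874, as was AXL, at 833 to 1133 against 1206 to 1466, and the endothelial PECAM1 was higher, at 5.29 to 8.88 against 1.77 to 5.09. CD44 overlapped but ran higher in them, at 1258 to 1513 CPM against 932.5 to 1386. EGFR overlapped as well, at 495.5 to 574.2 CPM against 541.4 to 840.5, and so did ERBB2, at 45.7 to 60.6 against 47.5 to 81.1. VIM, CD44, AXL and EGFR were detected in each library, and the hormone receptor genes ESR1 and PGR had at most 6 and 4 counts. Summed markers of leukocytes, fibroblasts and endothelium (PTPRC, CD3E, LYZ, DCN, LUM, PECAM1 and VWF) came to 2.88 to 11.1 CPM in siControl, 3.99 to 8.33 for siNELFA, 5.22 to 7.48 for siYAP and 5.72 to 7.06 for the double knockdown, with CD3E at 0 throughout. The labels title the siNELFA+siYAP libraries replicates 1 to 3, but none of them resembled the replicate 1 libraries of the other groups, and their biological coefficient of variation was 0.0615 against 0.351 to 0.365 elsewhere. The column names of the count table number the libraries of the other groups N1, N2 and N3, while all 3 siNELFA+siYAP columns carry N1 with a further index. The methods of the study describe independent biological replicates without tying each library to a culture. Whether the siNELFA+siYAP libraries come from separate cultures is therefore unclear, and p-values of comparisons with that group may rest on technical spread. Because siControl, siNELFA and siYAP shared the replicate 1 difference, the single knockdowns were also fitted with the replicate number as a block. Whether replicates 2 and 3 are paired across these groups is not known. Calls made only with the block therefore assume a pairing that was not shown. Results with the block are reported where they alter a call.

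Several of the 10 genes moved with the replicate 1 libraries. The ratio of replicate 1 to the mean of replicates 2 and 3, in CPM, was 3.89, 2.99 and 3.33 for TGFB2 in siControl, siNELFA and siYAP, and 1.19 in siNELFA+siYAP. For TGFBR1 it was 3.10, 2.48 and 2.14 in the same 3 groups, for SMAD2 it was 2.42, 1.99 and 1.83, and for LTBP1 it was 2.08, 2.01 and 1.93. This ratio was closer to 1 for SMAD3, LTBP3 and TGFBR2, at 0.914 to 1.03, 1.03 to 1.27 and 0.844 to 0.885, although replicate 3 of TGFBR2 was the highest library in those groups. For SMAD4 the ratio was 1.67, 1.62 and 1.53 in siControl, siNELFA and siYAP, and for SMAD7 it was 1.56, 2.03 and 1.65. For TGFB1 it was 1.10 in siControl but 1.72 in siNELFA and 1.72 in siYAP. The part of the replicate 1 libraries in each comparison is therefore shown by leaving them out, while the part of the marker genes that differ in them was not tested. In bulk RNA, fewer cells of a kind and less RNA per cell cannot be told apart.

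**Figure D1:**
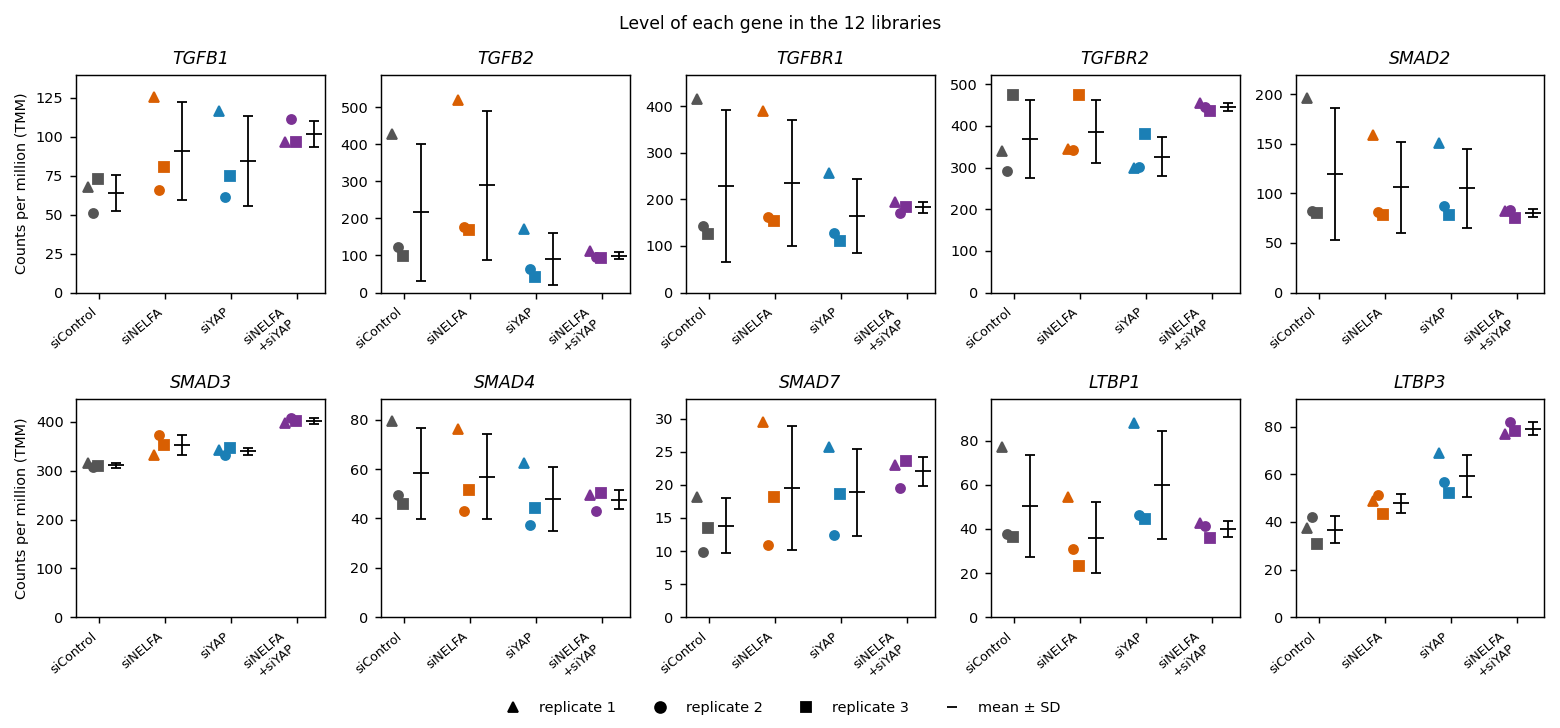
TMM-normalised CPM (linear axes from 0) of each of the 10 genes in the 12 libraries, by siRNA group, with marker shape giving the replicate number and bars the mean ± SD of 3 libraries. Replicate 1 stands far above the other libraries for TGFB2, TGFBR1, SMAD2 and LTBP1 in siControl, siNELFA and siYAP, whereas LTBP3 steps up from siControl (30.7 to 41.9) to siNELFA+siYAP (77.0 to 82.1).

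The ligand gene TGFB2 differed most between the single knockdowns. It lies at chr1:218345336-218444619 on the plus strand (GRCh38). In siControl it had 429, 122 and 98.8 CPM in replicates 1, 2 and 3. In siNELFA it had 519, 177 and 169 CPM, and in siYAP 172, 62.1 and 40.9. Within each replicate number the order was the same, with siNELFA highest, siControl between and siYAP lowest, although the group ranges overlap because of replicate 1. The log2 ratio to the siControl library of the same number was 0.28, 0.54 and 0.78 in siNELFA and -1.32, -0.97 and -1.27 in siYAP.

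Without the block, neither change in TGFB2 passed edgeR's quasi-likelihood test after Benjamini-Hochberg adjustment. The log2 fold change was 0.42 ± 0.67 (SE) in siNELFA and -1.24 ± 0.71 in siYAP, with adjusted p = 1.00 for each. With the replicate number as a block, TGFB2 rose in siNELFA by 0.54 ± 0.11 (edgeR, adjusted p = 0.0134) and fell by 1.18 ± 0.12 on the log2 scale in siYAP (adjusted p = 0.0185). When replicate 1 was left out of both groups the changes were 0.66 and -1.08, with edgeR adjusted p = 0.0877 and 0.603. Because both comparisons use the same siControl libraries, the single knockdowns were also compared directly, a comparison added after the values were seen. The siNELFA level of TGFB2 exceeded that of siYAP by a log2 fold change of 1.65 ± 0.66 without the block (edgeR, unadjusted p = 0.0395, adjusted p = 0.858). The difference was 1.71 ± 0.10 with the block (adjusted p = 8.79e-12) and 1.74 without replicate 1 (adjusted p = 0.0135).

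In siNELFA+siYAP, TGFB2 had 111, 94.4 and 92.4 CPM. These libraries lay below all 3 of siNELFA, near replicates 2 and 3 of siControl, and among those of siYAP. Against siNELFA the log2 fold change was -1.54 ± 0.43 (edgeR, unadjusted p = 0.00753, adjusted p = 0.735). Against siYAP it was 0.10 ± 0.48 (adjusted p = 0.935). Against siControl it was -1.13 ± 0.54 (adjusted p = 0.314) and came to -0.14 without siControl replicate 1, so that value rests on 1 control library. Without siNELFA replicate 1, TGFB2 was lower than in siNELFA by -0.80 (adjusted p = 0.00109), and without siYAP replicate 1 it was higher than in siYAP by 0.95 (adjusted p = 0.00143). The level of TGFB2 in the double knockdown relative to siYAP thus depended on the replicate 1 library.

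Promoter sequences are shown for TGFB2, which differed most between the single knockdowns, and for LTBP1. YAP acts through TEAD factors, but whether any motif in these windows plays a part in the changes was not tested. The windows printed here are the 250 bases before the RefSeq start (GRCh38.p14). The first, on the plus strand at chr1:218345086-218345335, also covers exons of the antisense transcript TGFB2-AS1, and capitals mark a match to the TEAD motif CATTCC, 185 bases before the start. The other is the window of LTBP1 on the plus strand at chr2:32946703-32946952, where capitals mark a match to the cAMP response element TGACGTCA, 94 bases before the start.
TGFB2: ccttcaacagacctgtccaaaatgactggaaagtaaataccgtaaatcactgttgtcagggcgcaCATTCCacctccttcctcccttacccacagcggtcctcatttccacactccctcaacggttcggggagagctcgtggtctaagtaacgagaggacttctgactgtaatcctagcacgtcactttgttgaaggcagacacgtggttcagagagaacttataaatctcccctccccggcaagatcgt
LTBP1: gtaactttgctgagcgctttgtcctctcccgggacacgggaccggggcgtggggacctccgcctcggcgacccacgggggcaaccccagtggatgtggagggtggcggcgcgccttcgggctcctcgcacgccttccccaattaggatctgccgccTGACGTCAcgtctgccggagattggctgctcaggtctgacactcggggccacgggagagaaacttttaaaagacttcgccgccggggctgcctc

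Windows were found for 10 of 10 genes, 28 in all, since a gene can have several starts. Each was searched on both strands for the TEAD motif (CATTCC, reverse GGAATG), the AP-1 motif (TGACTCA, reverse TGAGTCA), the cAMP response element (TGACGTCA, a palindrome) and a SMAD motif (GTCTAGAC, a palindrome), none of which overlapped another match. Besides those printed, TGFBR1 held GGAATG 132 bases before one of its starts and SMAD3 held TGAGTCA 56 bases before an internal start. The motifs were present in 11.9%, 4.2%, 1.65% and 0.182% of all 35116 promoter windows, in the order given. A match describes the letters of the window and is not a mapped binding site.

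The other ligand gene, TGFB1, lies at chr19:41301587-41353922 on the minus strand. It had 68.0, 51.1 and 72.6 CPM in siControl, 126, 65.7 and 80.4 after siNELFA, 117, 61.2 and 75.0 after siYAP, and 96.7, 111 and 96.8 after both siRNAs. The double knockdown libraries all lay above the siControl libraries, while both single knockdowns overlapped them. The log2 fold change in siNELFA+siYAP was 0.67 ± 0.16 (edgeR, unadjusted p = 0.00409, adjusted p = 0.108). Without siControl replicate 1 it was 0.73 (adjusted p = 0.000322). With the block it was 0.47 ± 0.14 in siNELFA (edgeR, unadjusted p = 0.00467, adjusted p = 0.0684) and 0.37 ± 0.15 in siYAP (unadjusted p = 0.0375, adjusted p = 0.544), where without it p was 0.108 and 0.181. When replicate 1 was left out of both groups, the changes were 0.25 in siNELFA and 0.15 in siYAP (edgeR, unadjusted p = 0.192 and 0.406). TGFB1 overlaps other genes on the opposite strand, among them CCDC97 and HNRNPUL1, and the strand setting of the counting step is not given in the sources used here.

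Of the binding proteins, LTBP3 had the largest and most even change. It lies at chr11:65538559-65558930 on the minus strand. In siControl it had 37.5, 41.9 and 30.7 CPM. It had 48.6, 51.4 and 43.4 CPM after siNELFA, 69.0, 56.6 and 52.1 after siYAP, and 77.0, 82.1 and 78.2 after both siRNAs. The 4 groups did not overlap and ran upward in that order.

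Between siControl and siNELFA+siYAP, LTBP3 rose by 1.11 ± 0.15 on the log2 scale, or 2.16-fold (edgeR, adjusted p = 0.0423). This was the only change among the 10 genes that passed edgeR's adjusted threshold in the main fits. Those fits used all libraries of the compared groups, the filter on low counts and no block. The call was lost without siControl replicate 2 (adjusted p = 0.140), without any of the siNELFA+siYAP libraries (0.363 to 0.389) and on the deposited TPM values (transcript abundance scaled by length and library, 0.226), with log2 fold changes of 0.86 to 1.22 throughout. With the replicate block, which ties siNELFA+siYAP to siControl by number alone, the call was also lost (edgeR, adjusted p = 0.194) and the log2 fold change was 1.12. In the single knockdowns it was 0.39 ± 0.18 in siNELFA (edgeR, unadjusted p = 0.0712), or 0.40 ± 0.13 with the block (unadjusted p = 0.00786, adjusted p = 0.0907), and 0.70 ± 0.21 in siYAP (unadjusted p = 0.00998, adjusted p = 1.00). Against siYAP the double knockdown was higher by 0.41 ± 0.14 (adjusted p = 0.260), and against siNELFA by 0.73 ± 0.11 (adjusted p = 0.483). The interaction, which compares the effect of siNELFA with and without siYAP, was 0.02 ± 0.22 (adjusted p = 1.00). In TPM the step order was not kept, since siControl had 30.8, 25.3 and 15.1 TPM, siNELFA 25.3 to 27.5 and siYAP 24.3 to 35.4, but siNELFA+siYAP stayed above all of them at 41.4 to 42.9.

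LTBP1 went the other way in siNELFA. It had 77.0, 37.6 and 36.6 CPM in siControl and 54.2, 31.0 and 23.0 in siNELFA. In siYAP it had 88.0, 46.5 and 44.7 CPM, and in siNELFA+siYAP 42.5, 41.2 and 35.9. In each replicate number siNELFA was below siControl and siYAP above it, with log2 ratios of -0.50, -0.28 and -0.66 and of 0.19, 0.30 and 0.29. With the block the change was -0.48 ± 0.13 in siNELFA (edgeR, unadjusted p = 0.00307, adjusted p = 0.0541, against an unadjusted 0.288 without it) and 0.27 ± 0.13 in siYAP (adjusted p = 0.556). Compared directly, LTBP1 was lower in siNELFA than in siYAP by -0.73 ± 0.40 without the block (adjusted p = 0.950) and -0.75 ± 0.11 with it (adjusted p = 2.34e-05). The double knockdown libraries lay below all siYAP libraries, with a log2 fold change of -0.60 ± 0.28 (edgeR, adjusted p = 0.346), or -0.20 without siYAP replicate 1.

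**Figure D2:**
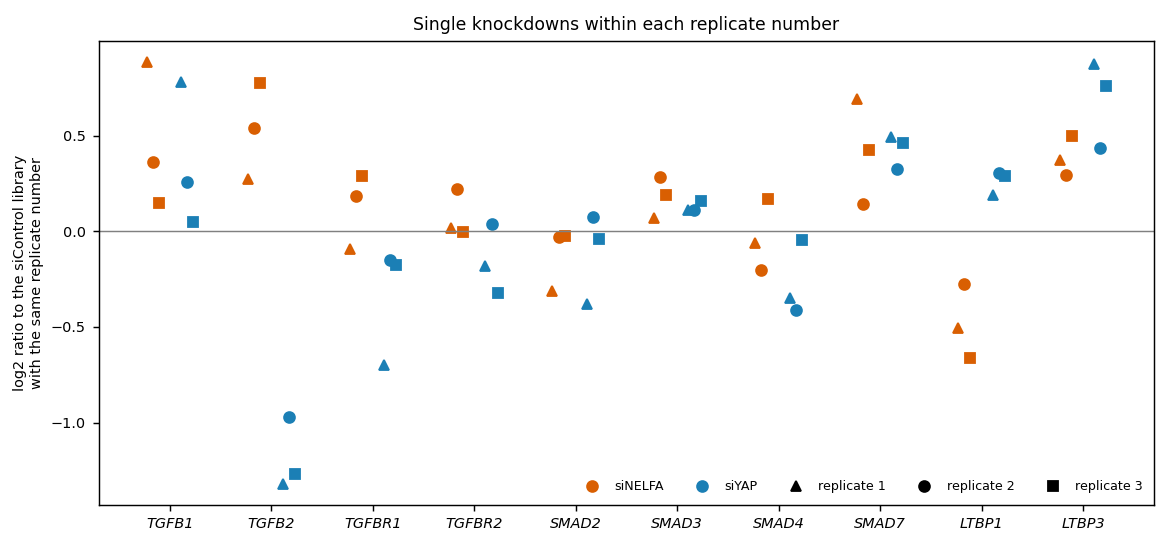
log2 ratio (y axis) of each siNELFA or siYAP library to the siControl library of the same replicate number, for the 10 genes (x axis), with marker shape giving the replicate. TGFB2 lies above 0 in siNELFA (0.28 to 0.78) and below it in siYAP (-1.32 to -0.97), LTBP1 shows the opposite, and LTBP3 is above 0 in both.

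The receptor TGFBR1 had 415, 143 and 125 CPM in siControl, 390, 162 and 153 after siNELFA, 256, 129 and 110 after siYAP, and 194, 172 and 183 after both siRNAs. Replicate 1 was the highest library in every group, and no pair of groups was separate. With the block, the change in siYAP was -0.33 ± 0.13 (edgeR, unadjusted p = 0.0309, adjusted p = 0.539). When replicate 1 was left out of both groups, it was -0.15 (edgeR, unadjusted p = 0.259). The double knockdown gave -0.33 ± 0.44 against siControl (adjusted p = 0.733), which turned to 0.46 (adjusted p = 0.000353) when siControl replicate 1 was left out. No direction can therefore be given for TGFBR1 in the double knockdown.

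TGFBR2, the receptor that binds the ligand, had 339, 292 and 474 CPM in siControl, 344, 341 and 473 after siNELFA, 299, 301 and 380 after siYAP, and 454, 444 and 435 after both siRNAs. The double knockdown libraries lay above all siYAP libraries but among those of siControl. Against siYAP, 25.6% of all genes were separate in either direction. Against siYAP the log2 fold change was 0.44 ± 0.12 (edgeR, unadjusted p = 0.00736, adjusted p = 0.197). Against siControl it was 0.27 ± 0.18 (adjusted p = 0.459).

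Among the receptor-activated SMADs, SMAD3 varied little between libraries. It had 317, 307 and 310 CPM in siControl, 332, 374 and 353 after siNELFA, 342, 332 and 346 after siYAP, and 397, 408 and 401 after both siRNAs. In CPM every knockdown group lay above siControl, and the double knockdown lay above both single ones. In TPM, siNELFA (94.8 to 101) and siYAP (98.0 to 106) overlapped siControl (88.7 to 98.9). The siNELFA+siYAP libraries stayed above all of them, at 109 to 123 TPM. The log2 fold change of SMAD3 in siNELFA+siYAP against siControl was 0.37 ± 0.09 (edgeR, unadjusted p = 0.00503, adjusted p = 0.114), and 0.39 without siControl replicate 1 (adjusted p = 5.46e-05). In siNELFA it was 0.19 ± 0.14 and in siYAP 0.14 ± 0.15 (adjusted p = 1.00 for each). SMAD2, its close relative, had 196, 82.4 and 79.9 CPM in siControl, 158, 80.8 and 78.4 after siNELFA, 151, 86.9 and 77.7 after siYAP, and 82.3, 83.1 and 75.4 after both siRNAs. Apart from the replicate 1 libraries, SMAD2 stayed between 75.4 and 86.9 CPM in all groups.

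The common partner SMAD4 had 79.5, 49.5 and 45.9 CPM in siControl, 76.3, 42.9 and 51.5 after siNELFA, 62.5, 37.2 and 44.4 after siYAP, and 49.4, 43.1 and 50.2 after both siRNAs, with all groups overlapping. It shares 29617 bases with a gene model on the same strand, so its reads may be divided. The inhibitor SMAD7 had the fewest reads of the 10 genes, 168 to 441 counts per library. It had 18.2, 9.92 and 13.4 CPM in siControl, 29.5, 11.0 and 18.1 after siNELFA, 25.6, 12.5 and 18.6 after siYAP, and 23.0, 19.5 and 23.6 after both siRNAs. The double knockdown lay above siControl in all libraries, by a log2 fold change of 0.68 ± 0.24 (edgeR, unadjusted p = 0.0261, adjusted p = 0.211). In the single knockdowns the same-number ratio was above 0 in each replicate, from 0.14 to 0.69 in siNELFA and from 0.33 to 0.49 in siYAP, but the groups overlapped. Without the block SMAD7 had edgeR unadjusted p = 0.247 in siNELFA and 0.222 in siYAP. With it the change was 0.44 ± 0.17 in each, with unadjusted p = 0.0241 and 0.0231 and adjusted p = 0.166 and 0.537. Leaving out replicate 1 of both groups gave 0.33 in siNELFA and 0.43 in siYAP (edgeR, unadjusted p = 0.244 and 0.110).

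Counted over the 10 genes, edgeR called 0 in siNELFA at the adjusted threshold, where 0.00564% of all tested genes passed, and 0 at an unadjusted p of 0.05, where 4.46% passed. DESeq2 also called 0 at either threshold. With the block, 1 gene passed the adjusted threshold (TGFB2, against 5.21% of all genes) and 5 the unadjusted one (against 20.2%). In siYAP, edgeR called 0 at the adjusted threshold (0.00578% of all genes) and 1 at the unadjusted one (LTBP3, against 1.3%). With the block these were 1 (TGFB2, against 0.0173%) and 5 (against 9.11%). The median log2 fold change of the 10 genes without the block was 0.13 in siNELFA and -0.01 in siYAP, beside medians of all tested genes within 0.01 of 0.

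In siNELFA+siYAP against siControl, 1 of 10 genes passed the adjusted threshold (LTBP3, against 0.428% of all genes). At the unadjusted one 4 passed, all higher (TGFB1, SMAD3, SMAD7 and LTBP3), where 18.5% of all genes passed in either direction and 8.27% as higher. Without siControl replicate 1, 5 genes passed the adjusted threshold, all higher, but so did 24.4% of all genes. Against siYAP, 0 passed the adjusted threshold (0.035% of all genes) and 3 the unadjusted one (TGFBR2, SMAD3 and LTBP3, against 15.5%), while DESeq2 called TGFBR2 after adjustment. Without siYAP replicate 1, 6 passed the adjusted threshold, against 16.5% of all genes. Against siNELFA, 0 passed the adjusted threshold (0.00573% of all genes) and 2 the unadjusted one (TGFB2 and LTBP3, against 6.62%), and DESeq2 called these 2 after adjustment. Without siNELFA replicate 1, 3 passed it (TGFB1, TGFB2 and LTBP3), against 1.25% of all genes. The interaction gave 0 genes at either threshold with edgeR and with DESeq2, where edgeR called 1.76% of all genes at the unadjusted one. Its SE ranged from 0.14 for SMAD3 to 0.92 for TGFB2 on the log2 scale, so differences of that size were not detectable for TGFB2 at this spread between libraries.

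In CPM, the groups of 3 libraries were fully separate for 2 of the 10 genes in siNELFA against siControl (SMAD3 and LTBP3, both higher), where 11.9% of all genes were separate. In siYAP the same was seen for SMAD3 and LTBP3, against 7.79% of all genes, with the same siControl libraries in use. For siNELFA+siYAP against siControl it was seen for 4 genes (TGFB1, SMAD3, SMAD7 and LTBP3, all higher), against 28.9% of all genes. Against siYAP the double knockdown was separate for 4 genes (TGFBR2, SMAD3 and LTBP3 higher, LTBP1 lower), beside 25.6% of all genes. Against siNELFA it was separate for 3 (SMAD3 and LTBP3 higher, TGFB2 lower), beside 14.8%. Between siNELFA and siYAP 1 gene was separate (LTBP3, lower in siNELFA), beside 12.5%. In the direct comparison of siNELFA with siYAP, 5 genes passed the adjusted threshold with the block, against 15.8% of all genes. Of these TGFB2, TGFBR1 (0.47) and TGFBR2 (0.23) were higher in siNELFA, and LTBP1 and LTBP3 (-0.31) lower. Without the block 0 passed it by edgeR, against 0.0116% of all genes, and TGFB2 alone passed the unadjusted one, against 5.63%. Without replicate 1, 1 passed the adjusted threshold (TGFB2, against 0.219%).

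**Figure D3:**
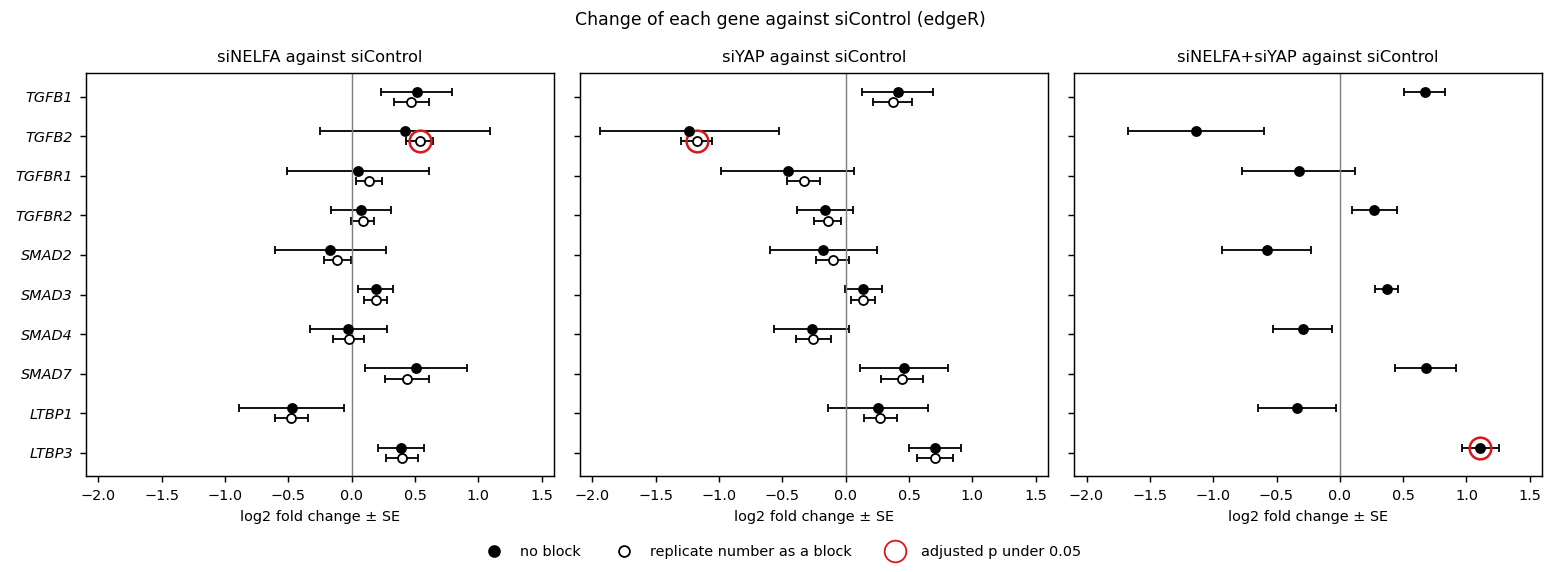
log2 fold change ± SE (x axis) of the 10 genes against siControl by edgeR, without the block (filled) and, for the single knockdowns, with the replicate number as a block (open), with red rings at an adjusted p under 0.05. The rings mark TGFB2 in siNELFA (0.54) and siYAP (-1.18) with the block, and LTBP3 in siNELFA+siYAP (1.11).

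Levels of different genes were compared per transcript length, in TPM. In siControl the order of mean levels was TGFBR2 (101 TPM), SMAD3 (95.3), TGFB2 (91.7), TGFBR1 (73.5), SMAD2 (53.3), SMAD4 (38.9), TGFB1 (31.1), LTBP3 (23.7), LTBP1 (16.3) and SMAD7 (7.43). Only LTBP1 lay above its next neighbour in that order, SMAD7, in all 3 libraries, and the other neighbours overlapped. In siNELFA, TGFB2 was first with 110 ± 73.0 TPM (SD, n = 3), and in siYAP it followed SMAD2 with 46.0 ± 33.9, in each case overlapping its next neighbour. In siNELFA+siYAP, SMAD3 (115 ± 7.14) and TGFBR2 (111 ± 3.40) stood above the rest, and TGFBR1 (51.7 ± 0.633), TGFB1 (47.1 ± 3.15) and LTBP3 (42.1 ± 0.741) followed in that order without overlap between neighbours. TGFB2 mRNA thus exceeded TGFB1 mRNA per length in all siControl and siNELFA libraries, while in siNELFA+siYAP their TPM means were 41.6 and 47.1.

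**Figure D4:**
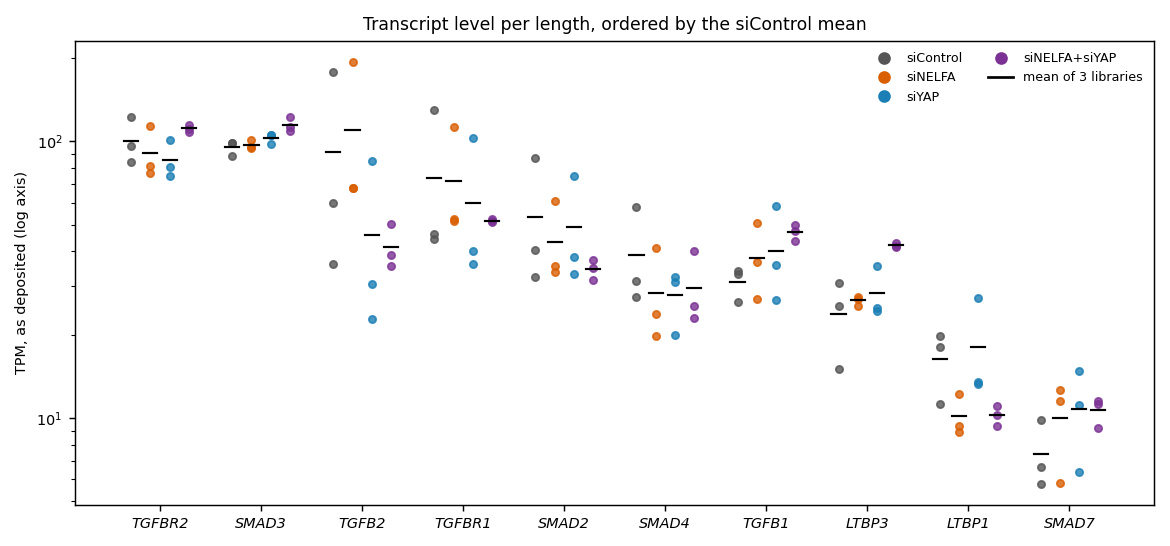
Deposited TPM (log axis) of the 10 genes ordered by the siControl mean, with 1 point per library, colours for the groups and black lines for means of 3 libraries. TGFBR2 and SMAD3 are near the top in every group, SMAD7 (7.43 in siControl) and LTBP1 near the bottom, and the TGFB2 mean lies between 41.6 in siNELFA+siYAP and 110 in siNELFA.

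Other genes of the pathway were followed in a list of 76 genes in 6 roles, of which 69 were tested. The list was chosen with earlier results of these data known. It holds CTGF and CYR61, which the study had reported as raised after NELF-A depletion. Its counts beside the shares of all genes are therefore a description and not a test of enrichment. In siNELFA, 11 were higher and 0 lower at an unadjusted p of 0.05 by edgeR without the block, beside 2.25% and 2.21% of all genes, and 0 passed after adjustment. Of 22 target genes tested 8 were higher, and the median log2 fold change of that role was 0.58. With the block, 14 rose and 3 fell after adjustment, beside 2.76% and 2.45% of all genes, and without replicate 1 of both groups 18 were higher and 5 lower at the unadjusted threshold, beside 7.1% and 7.15% of all genes. The genes that rose with the block included the matrix-associated targets CTGF (1.29 ± 0.11), CYR61 (0.87 ± 0.12) and COL4A1 (0.77 ± 0.10), of which CTGF and CYR61 are also well known YAP targets. The cell cycle inhibitor CDKN1A (1.23 ± 0.13), the AP-1 subunit JUNB (0.87 ± 0.14), the protease ADAM19 (0.95 ± 0.10), BHLHE40 (0.61 ± 0.11) and TGFBI (0.48 ± 0.10) also rose. On the ligand side, the pro-protein convertase FURIN, which cleaves the TGF-beta precursor, rose by 0.76 ± 0.13, the TGF-beta activator THBS1 by 0.78 ± 0.11 and the divergent family member GDF15 by 1.09 ± 0.27. The activin antagonist FST (1.03 ± 0.22) and the TGFBR1-binding FKBP1A (0.39 ± 0.09) rose as well. Those that fell were the cytokine IL11 (-1.22 ± 0.17), fibronectin FN1 (-0.46 ± 0.09) and TGFBRAP1 (-0.63 ± 0.14).

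In siYAP, 0 of the 69 genes were higher and 2 lower at the unadjusted threshold, beside 0.752% and 0.549% of all genes. They were CTGF (-0.89 ± 0.20, edgeR adjusted p = 1.00) and SMAD9 (-1.41 ± 0.49), named after its value was seen, which averaged 15.1 counts. With the block 8 were higher and 8 lower, beside 5.11% and 4% of all genes, and 0 passed after adjustment. In siNELFA+siYAP against siControl, 18 were higher and 5 lower at the unadjusted threshold, beside 8.27% and 10.2% of all genes, and 0 passed after adjustment. Target genes made up 12 of the higher and 3 of the lower ones. The values were 1.56 ± 0.33 for ADAM19, 1.52 ± 0.29 for CDKN1A, 1.07 ± 0.21 for FURIN and 1.19 ± 0.32 for PMEPA1, an inhibitor of SMAD signalling. They were 0.66 ± 0.16 for FKBP1A, 0.76 ± 0.31 for the inhibitory SMAD6, -1.05 ± 0.32 for the BMP-responsive SMAD1 and 0.45 ± 0.19 for the activin receptor ACVR2A. Without siControl replicate 1, 23 of 71 rose and 12 fell after adjustment, beside 11.5% and 12.9% of all genes.

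Against siYAP, siNELFA+siYAP had 14 of 69 list genes higher and 6 lower at the unadjusted threshold, beside 6.66% and 8.85% of all genes. Among those past the unadjusted threshold were PMEPA1 (1.43 ± 0.29), ADAM19 (1.32 ± 0.28), the activin subunit INHBA (1.06 ± 0.38), SKIL (0.82 ± 0.23), FURIN (0.68 ± 0.15), ACVR2A (0.52 ± 0.13), BMP4 (-0.91 ± 0.35), SMAD1 (-1.10 ± 0.37) and the BMP receptor BMPR2 (-0.52 ± 0.16). Against siNELFA, 4 of 70 were higher and 7 lower, beside 2.69% and 3.93% of all genes. Examples were IL11 (1.14 ± 0.42), PMEPA1 (0.89 ± 0.36), FURIN (0.35 ± 0.14), THBS1 (-1.03 ± 0.25), TAGLN (-1.21 ± 0.23), FST (-0.87 ± 0.34) and the co-receptor TGFBR3 (-0.39 ± 0.16). In the interaction, 0 list genes passed either threshold by edgeR without the block.

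**Figure D5:**
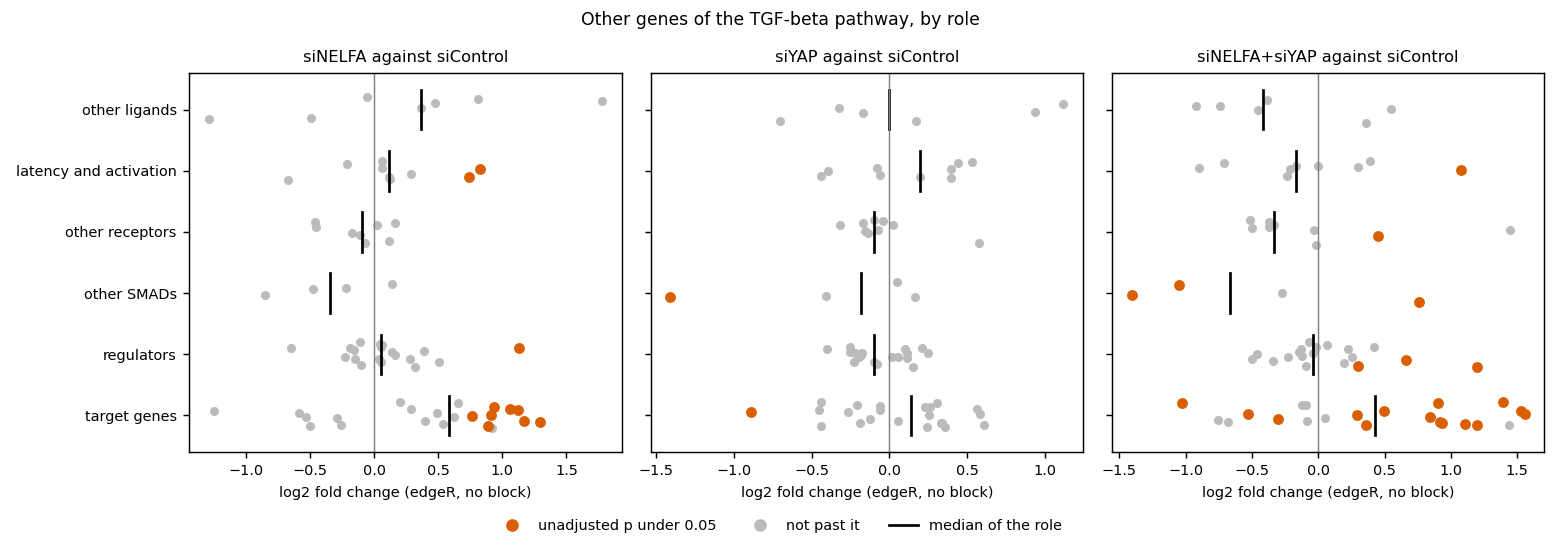
log2 fold change (x axis, edgeR without the block) of the other pathway genes by role in 3 comparisons with siControl, with 1 point per tested gene, orange for an unadjusted p under 0.05 and a black line for the median of the role. Target genes in siNELFA have a median of 0.58 with 8 genes past that threshold, all higher. The genes were listed with earlier results of these data known.

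The genes whose levels followed each member most closely were sought among 12971 genes averaging at least 50 counts, by Pearson's r of log2 CPM over the 12 libraries. These libraries share the replicate 1 difference, so r is a description. TGFB2 was closest to TGFB2-OT1 (r = 0.990), a transcript that lies inside TGFB2 on the same strand and shares 1371 bases with it, so their reads cannot be told apart. SMAD2 was closest to CD47 (0.993), LTBP1 to CA12 (0.988), TGFBR1 to PRRC1 (0.986), TGFB1 to VPS28 (0.976), SMAD4 to SPTY2D1 (0.968), SMAD7 to the target gene BHLHE40 (0.965), TGFBR2 to SPANXB1 (0.952) and SMAD3 to ETFB (0.945). LTBP3 was closest to EHBP1L1 (0.929), DNAH1 (0.890) and AGPAT4 (0.881). EHBP1L1 is a neighbour of LTBP3 on chromosome 11, with 17115 bases between them, and is transcribed from the opposite strand.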

How the data were processed

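RNA-seq covered 12 libraries in 4 groups, from total RNA depleted of ribosomal RNA. For the count table, the authors aligned reads to GRCh38 with STAR and ran featureCounts, so each deposited count is a number of reads on a gene, not normalised. The authors also deposited TPM, which lists 93 gene identifiers on several lines and was used here for levels and as an alternative. Their FPKM table was not used. edgeR 4.0.16 in R 4.3.3 served for all main tests (quasi-likelihood, TMM factors, filterByExpr at 10 counts, a total of 15 and 70% of libraries). Each pair of groups was fitted on its own 6 libraries with no block, and the interaction on all 12. The SE is the size of the log2 fold change over the square root of F, and the Benjamini-Hochberg adjustment ran over every tested gene.

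Replicate numbers come from the labels. Whether they pair libraries was checked on 12971 genes with a mean of 50 counts or more. Deviations from the group mean correlated, for libraries of the same number, at 0.642 to 0.886 within siControl, siNELFA and siYAP. With siNELFA+siYAP the correlation was -0.0523 to 0.0256, so that group was treated as unpaired. The group means include replicate 1, which pulls replicates 2 and 3 to the same side, and libraries of different numbers were not compared. The check therefore shows a shared replicate 1 difference and cannot tell whether replicates 2 and 3 are paired. Alternatives were DESeq2 1.42.0, RLE factors, no filter, all 12 libraries, the block, limma 3.58.1 on log2(TPM + 1), and leaving out libraries. Members, gene lists and comparisons were chosen with earlier results of these data known. Named are all 10 members, the 2 targeted genes, the genes nearest in pattern (3 for LTBP3 and 1 for each other member) and list genes past the adjusted threshold, or else the 2 in each role with the largest change at an unadjusted p under 0.05 and a mean of 50 counts. Some results for single list genes under this rule are left out. SMAD9 and the comparison of siNELFA with siYAP were added after values were seen. Tested on simulated data, with 200 genes shifted by 2 on the log2 scale, edgeR recovered 83% of them in siNELFA against siControl (17163 genes), and 7.26% of its calls were false. It recovered 97% in siNELFA+siYAP against siControl and 68% for the interaction. The simulated libraries held no replicate 1 difference shared between groups, and the shift was larger than any change reported for the 10 genes. Recovery of smaller changes was not simulated. Promoters are from RefSeq (GRCh38.p14) and other coordinates from GENCODE.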

Additional observations from a re-analysis of the deposited data

How the results depend on the processing

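Among the 10 genes, edgeR counts past the adjusted threshold moved with the tool and with the replicate 1 libraries. In siNELFA+siYAP against siControl the count was 1 and became 3 with DESeq2 (TGFB1, SMAD3 and LTBP3), 0 with the replicate block, 0 with limma on TPM and 5 without replicate 1 of siControl, and 0 to 5 when single libraries were left out. Against siYAP it was 0 and became 1 with DESeq2 and 6 without replicate 1 of siYAP, with a range of 0 to 6. Against siNELFA it was 0 and became 1 with no filter on low counts, 2 with DESeq2 and 3 without replicate 1 of siNELFA, with a range of 0 to 3. In the single knockdowns it was 0 and became 1 with the replicate block in each. At the unadjusted threshold, siNELFA had 0, or 1 with all 12 libraries, 5 with the block, 4 without replicate 1 of both groups, and 0 to 1 when single libraries were left out. For siYAP the 1 call became 2 with no filter, 5 with the block, 0 with limma on TPM, 3 without replicate 1 of both groups, and 1 to 2 when single libraries were left out. Without the replicate 1 library of the single knockdown, the double knockdown had 7 calls against siYAP (range 1 to 7) and 7 against siNELFA (range 2 to 7), and the interaction had 1 (TGFBR1).

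Over all tested genes, the 75 calls in siNELFA+siYAP against siControl were 1348 with DESeq2, 381 with no filter, 2 with the block, 11 with limma on TPM and 4531 without siControl replicate 1. In siNELFA the 1 call became 924 with the block and 27 with DESeq2. For the double knockdown, whose libraries share no more than a number with the others, the block is given only as a count and for the LTBP3 call. Against siControl, the adjusted call it changed in the single knockdowns was that of TGFB2, and it raised their unadjusted calls to 5 each. In siNELFA against siYAP it raised the adjusted calls from 0 to 5. With limma on TPM the median of all genes was -0.17 in siNELFA and -0.11 in siNELFA+siYAP, the latter against -0.03 by edgeR.

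The following directions turned, in log2 fold change, and the cause was not tested. Against siControl the list covers the 10 genes, and elsewhere the genes whose change the report gives, with all turns without replicate 1 of the single knockdowns and siControl added for the double knockdown and the interaction. In siNELFA, TGFBR2 was -0.15 with limma on TPM. In siYAP, SMAD2 was 0.038 without replicate 1 of both groups. In siNELFA+siYAP without siControl replicate 1, TGFBR1 was 0.46, SMAD4 0.0087 and LTBP1 0.11. In the interaction without the 3 replicate 1 libraries, TGFB2 was 0.28, SMAD3 -0.0066, TGFB1 0.32, SMAD7 0.17 and LTBP1 0.25. Without siNELFA replicate 1, the double knockdown against siNELFA had TGFBR1 at 0.22, SMAD2 at 0.02 and SMAD4 at 0.02. Without siYAP replicate 1, SMAD4 against siYAP was 0.22. When single libraries were left out, ranges that crossed 0 in siNELFA were -0.32 to 1.41 for TGFB2, -0.53 to 0.83 for TGFBR1, -0.10 to 0.30 for TGFBR2, -0.58 to 0.40 for SMAD2 and -0.30 to 0.27 for SMAD4. In siYAP they were -0.93 to 0.32 for TGFBR1, -0.32 to 0.051 for TGFBR2, -0.53 to 0.40 for SMAD2, -0.51 to 0.031 for SMAD4 and -0.14 to 0.71 for LTBP1. In siNELFA+siYAP they were -0.61 to 0.46 for TGFBR1, -0.43 to 0.01 for SMAD4 and -0.52 to 0.11 for LTBP1. Against siYAP, TGFB2 ranged from -0.25 to 0.95, and against siNELFA, TGFB1 ranged from -0.025 to 0.48. In the interaction, TGFB2 ranged from -1.28 to 0.53 and LTBP3 from -0.085 to 0.16. In siNELFA against siYAP, TGFBR1 ranged from -0.077 to 0.97. LTBP3 against siControl kept its sign in all 3 knockdown groups under every alternative run.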
